A study of Mus musculus with 13 samples.

Results

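The 40 genes described here encode subunits, assembly chaperones and activators of the mouse proteasome. They are the protein-coding genes of the deposited count table whose symbol is Psma, Psmb, Psmc, Psmd or Psme followed by a number, 40 of 55642 genes in all. The 3 catalytic genes of the immunoproteasome, Psmb8, Psmb9 and Psmb10, were left out of this set and are given separately as partner genes. Adrm1, Sem1, Pomp and the Psmg genes, whose symbols do not match, are also among the partner genes. No expression value was used to choose the members.

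The proteasome is the protease that degrades ubiquitin-tagged proteins in the cytoplasm and nucleus. Its core particle is a barrel of alpha and beta rings, with the proteolytic sites inside on the beta subunits encoded by Psmb5, Psmb6 and Psmb7. The regulatory particle that caps the barrel has a base, with a ring of ATPases that unfold substrates, and a lid that removes ubiquitin. In muscle this system carries much of the protein breakdown of atrophy, and the transcription factor NRF1, encoded by Nfe2l1, is known to induce the subunit genes together when proteasome activity is short.

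RNA was sequenced from C2C12, an immortalized line of mouse skeletal myoblasts, after reverse transfection with siRNAs, either nontargeting (control KD) or against the RNA-binding protein YBX3 (YBX3 KD). Proliferating myoblasts stayed in 10% fetal bovine serum (0 day), and differentiating myoblasts were moved 24 h after transfection to 10% horse serum for 24 h (1 day). All cells, controls included, were transfected and were harvested at 48 h, so no untransfected cells enter any comparison. Each siRNA group had 4 libraries at 0 day, lettered A to D. At 1 day control KD had 2 libraries, C and D, and YBX3 KD had 3, B to D.

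Library totals ran from 33451547 to 71811371 estimated counts. In CPM, counts scaled to a common library size, Ybx3 averaged 311 ± 29.3 (SD, n = 6) in control KD against 45 ± 13.2 (SD, n = 7) in YBX3 KD, and the groups did not overlap. The 5 myoblast markers Myod1, Myf5, Cdh15, Des and Chrna1 summed to 434 to 648 CPM, although Myod1 itself averaged 1.76 CPM. The 6 differentiation markers summed to only 2.58 to 20.2 CPM, and Myog reached at most 129 counts in any library, so the 1 day cells had little differentiation RNA. The endothelial, leukocyte and adipocyte lists summed to at most 1.46, 2.54 and 0.0848 CPM. Of these lists, Pecam1, Ptprc and Adipoq had at most 5, 2 and 2 counts. Cdh5 of the endothelial list and Cd68 of the leukocyte list had more, at 34 to 78 and 58 to 153 counts per library. They averaged 1.08 and 1.96 CPM, so Cd68 was about as abundant as Myod1. The 4 replicate D libraries stood apart from the rest. They were among the shallower ones, at 33451547 to 41868570 counts, and their 4 proliferation markers (Mki67, Top2a, Ccnb1 and Ccna2) summed to 280 to 1308 CPM against 1161 to 1677 CPM in the other 9 libraries.

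To show what the subunit genes share in sequence, their promoters were searched on both strands for motifs in the RefSeq promoter windows of build GRCm38.p6, which run from 250 bases before to 50 bases after the transcript start. Windows were given for 33 of the 40 members. The antioxidant response element core TGACNNNGC, the type of element that NRF1 binds, was in 6 of 33 members (18.2%) and in 15.6% of all 15260 genes with a window. The ETS core CCGGAAG, read by ETS-family transcription factors, was in 12 of 33 members (36.4%) against 14.2% of all genes. The GC box GGGCGG was in 63.6% against 54.7%, and the CCAAT box in 39.4% against 42.4%. The ETS core was thus the motif whose share departed most from that of all genes, and the antioxidant element core was about as frequent as elsewhere. A match is a description of the letters and not a measured binding site.

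These 4 stretches hold the antioxidant response element core, in capitals, with 12 bases on each side, written along the strand of the gene. They are shown because the core stands in 2 of the catalytic genes, an ATPase and an assembly chaperone. They lie on GRCm39 at chr14:54855479-54855511 (Psmb5), chr11:70416162-70416194 (Psmb6), chr14:45567042-45567074 (Psmc6, where the core is on the opposite strand) and chr5:123366210-123366242 (Psmd9).
Psmb5: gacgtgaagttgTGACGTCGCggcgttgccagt
Psmb6: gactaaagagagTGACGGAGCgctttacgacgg
Psmc6: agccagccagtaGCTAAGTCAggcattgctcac
Psmd9: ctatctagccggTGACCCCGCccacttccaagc

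The ETS core was in the windows of Psma6, Psmc1, Psmc2, Psmc6, Psmd2, Psmd4, Psmd6, Psmd11, Psmd12, Psmd13, Psme3 and Psme4. These 6 stretches from base and lid genes show it, in capitals, as examples. They lie on GRCm39 at chr3:94950032-94950062 (Psmd4), chr16:20470364-20470394 (Psmd2), chr12:100076421-100076451 (Psmc1), chr14:8348761-8348791 (Psmd6), chr11:80319418-80319448 (Psmd11) and chr11:107370325-107370355 (Psmd12). In Psmd2, Psmc1, Psmd11 and Psmd12 the core reads CTTCCGG because it is on the opposite strand. In those 4 genes its last base lies between -22 and -5, counted with the transcript start as 0.
Psmd4: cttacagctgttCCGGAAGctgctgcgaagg
Psmd2: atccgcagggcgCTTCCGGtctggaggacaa
Psmc1: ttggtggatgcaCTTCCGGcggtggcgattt
Psmd6: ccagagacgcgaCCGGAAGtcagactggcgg
Psmd11: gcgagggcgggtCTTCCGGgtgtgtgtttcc
Psmd12: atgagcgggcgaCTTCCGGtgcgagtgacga

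The YBX3 siRNAs were also compared with the subunit mRNAs, since an siRNA guide can lower other mRNAs through its seed, bases 2 to 8 (capitals below). The study lists 4 mouse YBX3 siRNAs, of which the 3 whose listed strands are complementary were used.
siRNA 05 guide: uAUAGUUGuagggacgucg
siRNA 06 guide: aUAGUAGCcgcgucuguac
siRNA 08 guide: aUACUUGCguggguuguuu

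A site for any of these seeds stood in the annotated 3′ UTR of 2 of the 38 members tested (5.26%), against 16.4% of the 12860 tested genes with such a UTR. The 3′ UTRs of the tested members ran from 47 bases (Psme2) to 5202 bases (Psmb1), and these shares were not matched for length. Psmd11 held a site for the seed of siRNA 05, starting at base 433 of its 3′ UTR, and Psmb1 one for siRNA 08, starting at base 887. The seed sites are in capitals.
Psmd11: aaaacaaaCAACTATgtatagac
Psmb1: gtggacatGCAAGTAtctctact

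Counts were high enough for a test in 38 of the members. Psma8, a testis alpha subunit, had 0 counts in every library, and Psmb11, a thymus catalytic subunit, had at most 1 count. The member with the fewest counts in any library, of those tested, was Psmd9, with 757 counts, and the highest count was 34689 for Psmd2. Per kb of transcript, taken as the median length of the annotated protein-coding transcripts, levels over the 13 libraries averaged 167.9 CPM per kb for Psma7, the highest of all. Psmb3 (163 CPM per kb) and Psmd2 (153 CPM per kb) followed. Psme1 was the lowest, at 15.3 CPM per kb. By class, the median was 132 CPM per kb for the 3 catalytic beta genes and 109 for the 4 noncatalytic beta genes. It was 97.2 for the 3 non-ATPase base genes, 82.7 for the 7 alpha genes, 74.8 for the 6 ATPases and 69.9 for the 8 lid genes. The 3 assembly chaperones, which leave the finished complex, had a median of 19.6 CPM per kb, and all 3 lay under the lowest member of every core, base and lid class. These levels depend on the annotated length: Psmb2 was at 67 CPM per kb by this length and at 21.6 by its canonical transcript. By canonical length the median of the noncatalytic beta genes was 80.4 CPM per kb, under the non-ATPase base genes (97.8) and the alpha genes (81), so the order of the classes changed.

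Together the 40 genes took between 0.404% and 0.631% of all counts. In control KD at 0 day the share was 0.584%, 0.618%, 0.586% and 0.437% for replicates A to D, and at 1 day it was 0.631% and 0.536% for C and D. In YBX3 KD at 0 day it was 0.516%, 0.559%, 0.516% and 0.478%, and at 1 day it was 0.584%, 0.528% and 0.404% for B, C and D. Replicate D was the lowest library of its group in all 4 groups. In bulk RNA, fewer cells of a type and less of an mRNA per cell cannot be told apart.

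**Figure D1:**
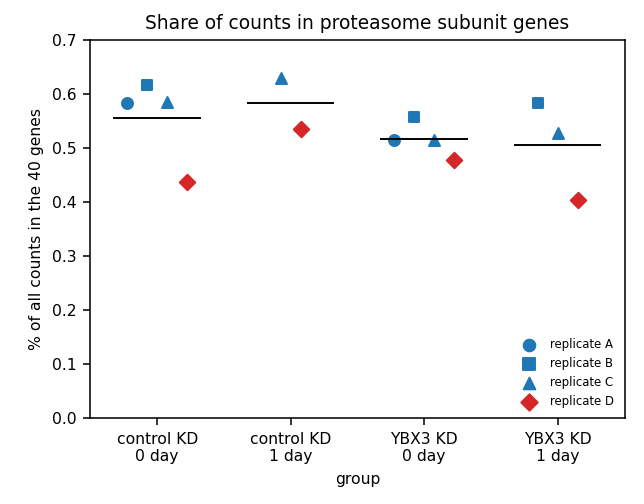
Share of all counts in the 40 proteasome genes (y axis, %) in each library, by group (x axis), with the marker giving the replicate letter and the line the group mean. Replicate D, in red, is the lowest point of every group, at 0.437%, 0.536%, 0.478% and 0.404% from left to right.

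To ask whether YBX3 KD changes the proteasome mRNAs, YBX3 KD and control KD were compared over both time points with day as a covariate in edgeR's quasi-likelihood test. Most members lay slightly below control KD, by similar amounts, but none passed the test. The fitted difference was below 0 for 36 of 38 members, with a median log2 fold change of -0.16, or 89.5% of control KD, while the median over all genes was 0. All 34 members other than the activators were below 0, with a median of -0.16, whereas the 4 activators were split, 2 below and 2 above. No member passed the study's thresholds (absolute fold change above 1.3 and adjusted p below 0.001), which 0.113% of the tested genes did. None was lower at an adjusted p below 0.05 by edgeR, against 1.04% of all genes. At an unadjusted p below 0.05, 3 members were lower (Psmd10, Psmd4 and Psmc3), or 3 of 38 against 6.93% of all genes, which is close to the background.

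**Figure D2:**
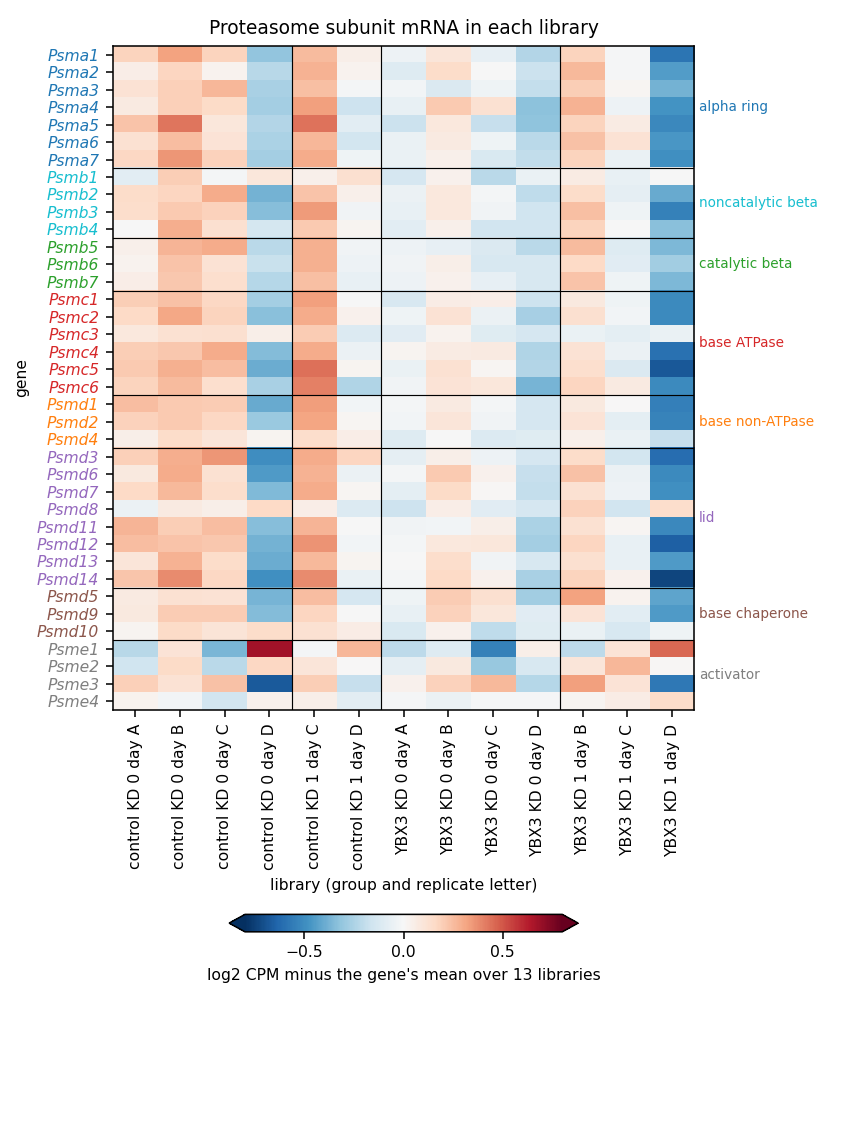
log2 CPM of each tested member (rows, grouped by structural class) in each of the 13 libraries (columns), as the difference from the mean of that gene, with red above and blue below. Control KD columns other than replicate D are mostly red, the replicate D columns of control KD at 0 day and YBX3 KD at 1 day are the bluest, and Psme1 runs opposite to the other rows.

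Replicate letters matched in their deviations, so the fit was repeated with the letter as a replicate block. With the block, 6 members were lower at an adjusted p below 0.05, or 6 of 38 against 4.38% of all genes. These were Psma5 (edgeR adjusted p 0.0154), Psmd4 (0.0227), Psmd10 (0.0277), Psma7 (0.0369), Psmb4 (0.0445) and Psmc2 (0.0466). The median over the 38 members was then -0.19. Without the 4 replicate D libraries, 16 members were lower, against 6.68% of all genes, again with a median of -0.19. They comprised 4 of 7 alpha genes, 5 of 6 ATPases, 3 of 3 non-ATPase base genes and 4 of 8 lid genes, and no beta, chaperone or activator gene. The beta genes had edgeR adjusted p from 0.0602 (Psmb2, at -0.20) to 0.38 (Psmb1, at -0.11). Psmb5 (-0.26) and Psmb3 (-0.19) were at 0.069 and 0.0732. With both changes together 22 members were lower, against 6.73% of all genes, with a median of -0.21. Among the 22 were the beta genes Psmb3, Psmb4 and Psmb6 (edgeR adjusted p 0.0413, 0.0247 and 0.0436), so the classes called changed with the fit. DESeq2 on all libraries called 2 members lower, Psmd4 and Psmd10, against 1.85% of all genes. DESeq2 with the block called 18 (background 5.08%) and DESeq2 without replicate D called 22 (background 5.58%). The median difference thus stayed between -0.16 and -0.21 in the edgeR fits named here, while the number of calls ran from 0 to 22.

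Some markers of the state of the cells moved with the same comparison. The 4 proliferation markers summed to 723 to 1677 CPM (median 1504) in control KD and to 280 to 1313 CPM (median 1175) in YBX3 KD. Without replicate D the sums did not overlap, at 1472 to 1677 CPM in control KD and 1161 to 1313 CPM in YBX3 KD. With all libraries the log2 fold changes of the 4 genes were between -0.53 (Ccna2) and -0.39 (Top2a), with edgeR adjusted p of 0.449 and 0.608. Without replicate D all 4 were lower, at -0.50 for Ccnb1 (edgeR adjusted p 0.000987), -0.47 for Ccna2 (0.000959), -0.31 for Top2a (0.00733) and -0.37 for Mki67 (0.0482). Of the myoblast markers, Chrna1, a subunit of the acetylcholine receptor, was higher in YBX3 KD by 0.37 with all libraries (edgeR adjusted p 0.0449) and by 0.27 without replicate D (0.0242). Myod1, a myogenic transcription factor, was at 1.11 (edgeR adjusted p 0.0726) with all libraries and was higher by 1.14 without replicate D (0.00632). The remaining myoblast markers did not pass, with Myf5 at 0.17, Cdh15 at 0.03 and Des at 0.06 with all libraries (edgeR adjusted p 0.684, 0.925 and 0.959). Without replicate D they were at 0.20, 0.02 and 0.32 (0.114, 0.909 and 0.123). The part of proliferation and of the myogenic state in the values of the members was not tested.

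**Figure D3:**
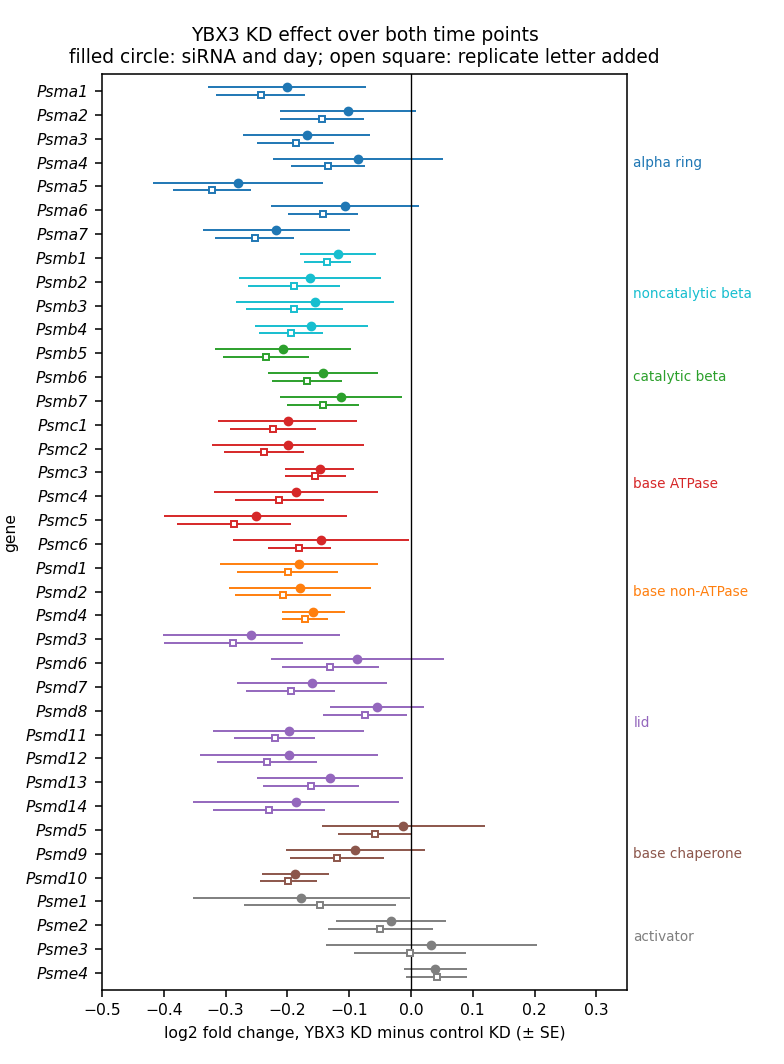
log2 fold change of YBX3 KD minus control KD with its SE for each tested member, by class, from the fit on siRNA and day (filled circles) and with the replicate letter added as a block (open squares). All core, base and lid genes lie below 0 in both fits, Psme1 lies at -0.18 and the other 3 activators near 0 in the first fit, and the error bars are shorter with the block.

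In the alpha ring, which forms the gate of the core particle, all 7 expressed genes were below 0, from -0.28 (Psma5) to -0.09 (Psma4). Psma5 had the smallest p of the class. Its CPM in control KD was 135, 155, 123 and 98.3 at 0 day (A to D) and 156 and 109 at 1 day (C and D). In YBX3 KD it was 102, 122, 102 and 92.1 at 0 day and 130, 121 and 80.8 at 1 day (B, C and D). Control KD replicate D at 0 day lay under 5 of the 7 YBX3 KD libraries. The groups overlapped with and without replicate D. The log2 fold change was -0.28 ± 0.14 (SE; edgeR adjusted p 0.356), and -0.32 ± 0.06 with the block. Psma1 (-0.20) and Psma7 (-0.22) were the next lowest, and Psma2 (-0.10), Psma3 (-0.17) and Psma6 (-0.11) the others.

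Among the noncatalytic beta genes, Psmb1, Psmb2, Psmb3 and Psmb4, the values ran from -0.16 to -0.12. Psmb1 had the smallest p, with 171, 208, 179, 193, 187 and 199 CPM in control KD and 166, 186, 156, 175, 190, 174 and 181 CPM in YBX3 KD, in the library order just used. In contrast to its neighbours in the ring, replicate D was not low for Psmb1. The log2 fold change was -0.12 ± 0.06 (SE; edgeR adjusted p 0.388). The 3 expressed catalytic genes were Psmb5, the chymotrypsin-like site, at -0.21, Psmb6, the caspase-like site, at -0.14, and Psmb7, the trypsin-like site, at -0.11. Psmb5 measured 56.7, 66.7, 67.7, 47.4, 67.3 and 54.1 CPM in control KD. It measured 53.7, 52.7, 50.9, 47.6, 65.7, 51.3 and 43 CPM in YBX3 KD, so the ranges overlapped (edgeR adjusted p 0.4).

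The base ATPases, the unfolding motor, were below 0 in all 6 genes, from -0.25 (Psmc5) to -0.15 (Psmc6), with a median of -0.19. Psmc3 was the most even of them across replicates. It measured 247, 254, 256, 242, 269 and 216 CPM in control KD and 220, 239, 218, 213, 225, 221 and 225 CPM in YBX3 KD. All control KD libraries but replicate D at 1 day were above all YBX3 KD libraries, and the log2 fold change was -0.15 ± 0.06 (SE; edgeR adjusted p 0.214). The remaining ATPases, Psmc1 (-0.20), Psmc2 (-0.20) and Psmc4 (-0.19), had SEs of 0.11 to 0.13.

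The non-ATPase base genes comprise the scaffolds Psmd1 (-0.18) and Psmd2 (-0.18) and the ubiquitin receptor Psmd4. Psmd4 measured 134, 144, 139, 132, 143 and 135 CPM in control KD and 121, 130, 121, 122, 134, 125 and 115 CPM in YBX3 KD. Only YBX3 KD replicate B at 1 day reached into the control KD range. The log2 fold change was -0.16 ± 0.05 (SE; edgeR adjusted p 0.136). By this measure Psmd4 combined one of the smallest spreads with a difference of the same size as the other base genes.

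All 8 lid genes were below 0. Psmd3, a scaffold of the lid, had the smallest p of them and the largest difference, -0.26 ± 0.14 (SE; edgeR adjusted p 0.422). It measured 281, 301, 314, 174, 301 and 277 CPM in control KD and 234, 254, 239, 224, 272, 222 and 161 CPM in YBX3 KD, so that control KD replicate D at 0 day was lower than 6 of the 7 YBX3 KD libraries. Psmd14, the deubiquitinase of the lid, was at -0.19 ± 0.17 (SE). Psmd11 and Psmd12 were at -0.20, Psmd7 at -0.16, Psmd13 at -0.13, Psmd6 at -0.09 and Psmd8 at -0.06.

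Of the 3 chaperones that assemble the base, Psmd10, also known as gankyrin, had the smallest p of all members. It measured 26.1, 28.5, 27.7, 28.5, 27.9 and 26.7 CPM in control KD and 23.7, 26.3, 22.4, 24, 24.7, 23.5 and 25.1 CPM in YBX3 KD. A single YBX3 KD library, replicate B at 0 day, lay just above the lowest control KD library and the other 6 lay below all of them. The log2 fold change was -0.19 ± 0.05 (SE; edgeR adjusted p 0.098). The other chaperones were at -0.09 (Psmd9) and -0.01 (Psmd5), and the sign of Psmd5 changed with the settings tried.

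The activators bind the ends of the core in place of the regulatory particle. Psme1 and Psme2 encode PA28 alpha and beta, induced by interferon, Psme3 encodes the nuclear PA28 gamma and Psme4 encodes PA200. Psme1 measured 53.8, 67.8, 48.7, 99.9, 62.2 and 75.6 CPM in control KD and 54.4, 58.5, 43.1, 64.8, 54.4, 67.8 and 86.4 CPM in YBX3 KD, highest in replicate D in every group. Its log2 fold change was -0.18 ± 0.18 (SE; edgeR adjusted p 0.677). Psme2 was at -0.03 ± 0.09, Psme3 at 0.03 ± 0.17 and Psme4 at 0.04 ± 0.05. Psme4 was among the steadiest members, with 173, 167, 152, 173, 175 and 159 CPM in control KD and 168, 163, 168, 167, 172, 176 and 187 CPM in YBX3 KD.

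**Figure D4:**
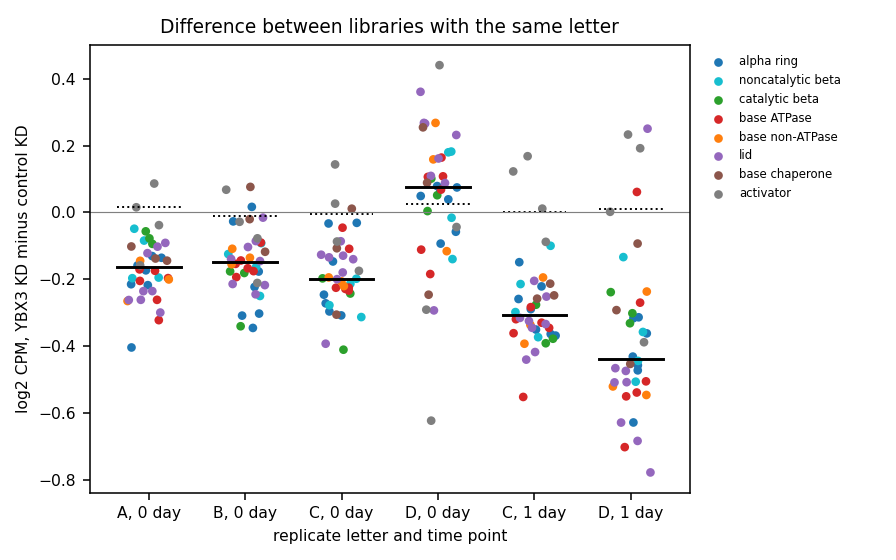
Difference in log2 CPM between the YBX3 KD and the control KD library of the same replicate letter and time point (x axis), with 1 point per tested member, colored by class, the solid line at the members' median and the dotted line at the median of all genes. The members' median is below 0 in 5 comparisons and at 0.08 in replicate D at 0 day.

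Between YBX3 KD and control KD, 6 comparisons can be made of libraries of the same letter and time point. At 0 day the median member difference was -0.16 in replicate A, -0.15 in B and -0.20 in C, with 35 or 36 of 38 members lower. In replicate D at 0 day it was 0.08, with 12 of 38 lower. At 1 day it was -0.31 in C (35 of 38 lower) and -0.44 in D (33 of 38 lower). Of all genes, between 46.7% and 52.4% were lower in each comparison. Replicate D was therefore the single exception at 0 day and held the largest difference at 1 day. In all 6 comparisons, 6 members were lower (Psma5, Psmb1, Psmb4, Psmc6, Psmd4 and Psmd10), against 7.97% of all genes. A further 27 were lower in 5, against 16.9% of all genes, and Psmd5 and the 4 activators in 3, against 17.5%. Over all 13 libraries no member was separated, with every YBX3 KD value below every control KD value, against 1.08% of all genes. Without replicate D 13 members were separated in that way, against 7.16% of all genes: Psma1, Psmb2, Psmc1, Psmc2, Psmc3, Psmc4, Psmc5, Psmd1, Psmd2, Psmd3, Psmd4, Psmd11 and Psmd12.

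Taken by time point, the median member difference was -0.13 at 0 day and -0.20 at 1 day. No member was lower at an edgeR adjusted p below 0.05 at 0 day, where 0.22% of all genes were, or at 1 day, where 0.0653% were. At an unadjusted p below 0.05, 3 of 38 members were lower at 0 day, against 5.38% of all genes, and 0 at 1 day, against 3.7%. DESeq2 called 0 members lower at an adjusted p below 0.05 at 0 day (background 0.798%) and 0 at 1 day (background 0.214%). Without replicate D the medians were -0.17 at 0 day and -0.20 at 1 day, with no member past an adjusted p of 0.05. The difference of the YBX3 KD effect between the time points was tested directly. No member passed at an adjusted p below 0.05 by edgeR, and 0% of all genes did. Its median over the members was -0.08. At an unadjusted p below 0.05, 0 members were lower or higher, against 0.985% and 1.65% of all genes, and DESeq2 called 0 (background 0.0033%). Without replicate D the median was -0.03 and no member passed an adjusted p of 0.05, against 0.0116% of all genes. With the replicate block the medians were -0.11 at 0 day and -0.32 at 1 day, again with no member past an adjusted p of 0.05. With the block, some members had a difference between the time points at an unadjusted p below 0.05. Examples were Psmc5 (-0.45; edgeR p 0.00895, adjusted p 0.433) and Psmd2 (-0.34; edgeR p 0.0237, adjusted p 0.433). The 1 day comparison rests on 2 control KD libraries, and single libraries moved its median by over 1.5 times. It was -0.06 without control KD replicate C, -0.07 without YBX3 KD replicate D, -0.35 without control KD replicate D and -0.36 without YBX3 KD replicate B, all at 1 day. At 0 day the median was between -0.08, without YBX3 KD replicate D or control KD replicate B, and -0.22, without control KD replicate D.

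To ask whether the move to differentiation medium changes these mRNAs, 1 day was compared with 0 day over both siRNAs. Proteasome mRNA levels differed little, with a median log2 fold change of 0 and a range from -0.07 (Psmd9) to 0.20 (Psme1). No member passed at an adjusted p below 0.05 by edgeR, nor did any gene (0%). At an unadjusted p below 0.05, 0 members were lower or higher, against 1.84% and 0.991% of all genes, and DESeq2 called 0 (background 0.0066%). Without replicate D the median was 0.06, and no member passed an adjusted p of 0.05, against 0.932% of all genes. In that fit 37 of 38 members were above 0, but the members are correlated, so they are not separate observations. At an unadjusted p below 0.05, 3 members were then higher, or 3 of 38 against 5.41% of all genes. They were Psma6 (0.15), Psme2 (0.23) and Psma5 (0.19). With all libraries, the smallest p-values belonged to 3 activators. Psme2 was at 0.15 ± 0.09 (SE), Psme4 at 0.06 ± 0.05 and Psme1 at 0.20 ± 0.18. Without replicate D they were at 0.23, 0.07 and 0.19. Psme2 measured 74, 91.8, 71 and 92.3 CPM at 0 day and 88.3 and 82.8 CPM at 1 day in control KD. In YBX3 KD it measured 78.5, 87, 66.9 and 75.4 CPM at 0 day and 88.2, 99.2 and 82.9 CPM at 1 day, and the time points overlapped. Within a letter, the median step from 0 to 1 day was 0.12 (C) and 0.25 (D) in control KD and 0.07 (B), 0 (C) and -0.25 (D) in YBX3 KD, so the steps did not share a direction in YBX3 KD. In control KD 31 (C) and 32 (D) of 38 members were higher at 1 day, against 53.45% and 49.1% of all genes. In YBX3 KD 32 (B), 18 (C) and 7 (D) were higher, against 50.5%, 50.1% and 47% of all genes.

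Most subunit mRNAs moved together from library to library. After the group means were removed, the median correlation over the 703 gene pairs was 0.91 across 13 libraries, and 68.7% of pairs were above 0.5, against 22.3% of pairs of all genes, whose median was 0. Without replicate D the median was 0.69, and 69.6% of pairs were above 0.5. These correlations are over the same libraries, which differ in depth and proliferation marker levels. A few members stood outside. The median correlation with the other members was 0.04 for Psmb1, -0.01 for Psmd8, -0.01 for Psmd10 and 0.48 for Psmc3 over 13 libraries. Without replicate D it was 0.68, 0.82, 0.67 and 0.63, so these 4 genes differed from the rest in the D libraries. Psme1 (-0.75) and Psme4 (-0.38) ran opposite to the other members over 13 libraries. Without replicate D they were at 0.09 and -0.26.

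Replicate D was next compared with the mean of the other replicates in each group, as a description. Averaged over the 4 groups, the median member was 0.38 lower on the log2 scale, a median difference of -0.38, against 0.01 for all genes. Lower values in all 4 groups were found for 31 of 38 members (81.6%) and 28.3% of all genes. The lowest were Psme3 (-0.60), Psmd14 (-0.58), Psmc6 (-0.54), Psmd12 (-0.50) and Psmc5 (-0.50). Psmb1 (0.05), Psmd8 (0.01), Psmd10 (0.01), Psme4 (0.02) and Psme2 (-0.02) were near level, and Psme1 was higher (0.49). Of the 6 members lower in every letter comparison, Psmb1, Psmd10 and Psmd4 (-0.09) were thus near level in replicate D, and Psma5 (-0.47) and Psmc6 were among the lowest. Proliferation markers were lower in replicate D, with ranges that overlapped, and its libraries were among the shallower ones. YBX3 KD replicate C at 1 day, at 36819569 counts, was shallower still than replicate D of its group (39296290). The part of proliferation and depth in these values was not tested.

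**Figure D5:**
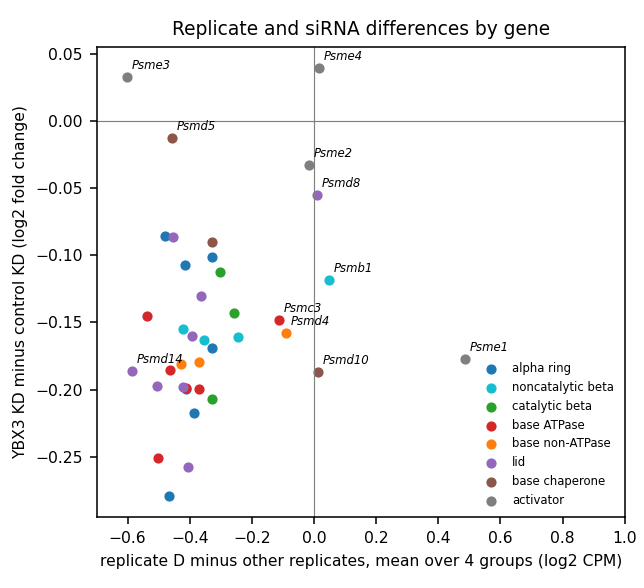
Each point is a tested member, with its mean difference in log2 CPM between replicate D and the other replicates of the group (x axis) and its log2 fold change in YBX3 KD over both time points (y axis), both from the same libraries. Most points lie to the left of and below 0, Psmb1, Psmd8 and Psmd10 lie near 0 on the x axis and below 0 on the y axis, and Psme1 is alone on the right.

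The genes whose levels were most like the mean of the members over the 13 libraries were Smu1 (r = 0.99), Txnl1 (0.99), Mrpl28 (0.99), Cfap298 (0.99) and Sf3a3 (0.98). Without replicate D their r was between 0.96 and 0.99. Txnl1 encodes a thioredoxin-like protein that binds the regulatory particle. The most opposite were Sh3rf1 (-0.98), Unc13b (-0.98) and Ezh1 (-0.97).

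A list of 39 partner genes holds factors that assemble, bind, regulate or feed the proteasome, all of which were tested. In YBX3 KD 30 of the 39 were below 0, with a median log2 fold change of -0.08, and none passed at an edgeR adjusted p below 0.05, against 2.34% of all genes in either direction. At an unadjusted p below 0.05, 4 of 39 were lower, against 6.93% of all genes, and 1 was higher, against 8.71%. Without replicate D, 30 of the 39 were again below 0, with a median of -0.09. The ubiquitin shuttles had the smallest p-values. Ubqln2 was at -0.24 ± 0.06 (SE; edgeR adjusted p 0.0615) and Rad23b at -0.18 ± 0.05 (SE; 0.0896), and both passed with the replicate block, at 0.0325 and 0.0296, as the 2 partners lower in that fit, against 4.38% of all genes. Without replicate D, 3 partners were lower, against 6.68% of all genes, and 1 was higher, against 5.8%. Psmg2, an assembly chaperone of the alpha ring, Adrm1, a ubiquitin receptor, and Ubqln2 were lower, at adjusted p 0.0325, 0.0405 and 0.0122 by edgeR, and Fbxo32 was higher at 0.0115. Fbxo32 encodes atrogin-1, a muscle ubiquitin ligase. Its log2 fold change was 0.45 ± 0.41 (SE; edgeR adjusted p 0.641) with all libraries and 0.54 ± 0.11 (SE) without replicate D.

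Nfe2l1, which encodes NRF1, ran opposite to the subunit genes. It measured 238, 265, 261, 424, 257 and 296 CPM in control KD and 291, 281, 270, 349, 264, 271 and 494 CPM in YBX3 KD, highest in replicate D in every group. Its r with the mean of the members was -0.90 over 13 libraries and -0.55 without replicate D. Its difference in YBX3 KD was 0.12 ± 0.18 (SE), and 0.11 ± 0.05 (SE; edgeR adjusted p 0.167) without replicate D. Fbxo32 was likewise highest in replicate D within each group, with 68.4 and 34.1 CPM in control KD replicate D and 53.4 and 102 CPM in YBX3 KD replicate D, against 19.3 to 35.7 CPM in the other libraries. The related factor gene Nfe2l2 was at -0.16 ± 0.11 (SE), the NRF1 protease gene Ddi2 at 0.03 ± 0.06 and Pomp, the maturation factor of the core particle, at -0.07 ± 0.13.

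The immunoproteasome catalytic genes were far less abundant than their constitutive counterparts. Psmb8 and Psmb9 measured at most 3.68 and 2.23 CPM in any library, and Psmb10 lay between 16.2 and 30.5 CPM. Their log2 fold changes in YBX3 KD were 0.29 ± 0.35, 0.11 ± 0.33 and -0.09 ± 0.13 (SE). Of the annotated near copies, whose reads could have been split with the members by the quantification, Psme2b had 3 to 48 counts and Psma5-ps 4 to 56 counts per library. Psmb7-ps2, Psmb6-ps2 and Psmb5-ps had at most 8, 4 and 1 counts, so these copies held a small share of the reads of Psme2, Psma5, Psmb7, Psmb6 and Psmb5.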

How the data were processed

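The authors mapped stranded mRNA reads from C2C12 cells with Salmon to GRCm39 (Gencode M30) and deposited estimated counts per gene for 13 libraries, not normalized and given as whole numbers, so depth differs between libraries. The step that made them whole is not given in the sources used here. Groups came from the labels. Replicate letters came from the sample descriptions, and the numbers in the titles differ from them at 1 day. The titles call the libraries biological replicates but do not say whether they were separate cultures, so p-values measure only the spread between these libraries.

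Symbols and positions came from GENCODE vM39 (GRCm39), which holds 54969 of the 55642 genes. Genes were filtered with filterByExpr (16848 tested), TMM-scaled and fitted with edgeR 4.0.16 (quasi-likelihood, siRNA and day, or 1 term per group) in R 4.3.3, with Benjamini-Hochberg adjustment over all genes tested. CPM are TMM-scaled, and log2 CPM used a prior count of 2. An SE is the log2 fold change divided by the square root of its F statistic. Deviations from group means correlated above 0.1 in 16 of 16 library pairs that share a letter (15 of 16 with a prior count of 0.5). They did so in 11 of 46 pairs with different letters and in 8 of 16 pairs that share a title number. Deviations within a group cancel out, and those of the control KD libraries C and D at 1 day mirror each other. These pair counts are therefore not independent of each other. The letter was used as a block on this basis. Alternatives were DESeq2 1.42.0, RLE and upper quartile factors, no filter, at least 10 counts everywhere, the letter or the title number as block, and libraries left out. Seed sites were searched in the 3′ UTR of each gene's canonical transcript.

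Every member is named. Values in every library are given for the member with the smallest p of each class and the 3 with the smallest p between days. Members were picked by symbol and gene type, without expression values. The choice of this gene set, the lists and the alternatives was made with earlier results of these data known. A further 3 alternatives, combining the block, DESeq2 and the omission of replicate D, were added after the data were seen. The scripts were tested on simulated counts.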

Additional observations from a re-analysis of the deposited data

Results flagged for a closer look

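In groups of 4 libraries, the gap from the highest or lowest library to its nearest neighbor was divided by the range of the group and compared with Dixon's critical value for 4 values. Of 78 groups (38 members and their median deviation, in control KD and YBX3 KD at 0 day), 10 were above it. Chance alone gives about 1 in 20 groups, and these members are correlated, so their flags are not independent.

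In control KD at 0 day, replicate D stood below the other 3 libraries for 8 members. The gap was 0.85 of the range for Psmb3, 0.841 for Psmc1, 0.865 for Psmc5, 0.916 for Psmd1, 0.905 for Psmd2, 0.873 for Psmd5, 0.849 for Psmd11 and 0.942 for Psmd12. For Psmd12 replicate D measured 101 CPM against 152 to 156 CPM in A to C.

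In YBX3 KD at 0 day, replicate B stood apart for 2 members. It was above the other 3 libraries for Psmd4 (0.876; 130 CPM against 121 to 122 CPM) and below them for Psme4 (0.887; 163 CPM against 167 to 168 CPM).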

How the results depend on the processing

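The fitted difference between YBX3 KD and control KD kept its sign in all 25 settings for 35 of 38 members, and changed sign in some for Psmd5, Psme2 and Psme3. The number of members lower at an adjusted p below 0.05 was 0 with all libraries and 0 whenever any single library was left out. It was 2 with DESeq2, 6 with the replicate block, 16 without all libraries of replicate D, 22 with the replicate block and without replicate D, 18 with DESeq2 and the replicate block, and 22 with DESeq2 without replicate D. The last 3 were added after the data were seen. RLE or upper quartile factors, no filter, at least 10 counts in every library, and the title number as block gave 0. The paired fit changed no call in the comparisons by time point or between days. The median correlation among members was 0.91, and 0.69 without all libraries of replicate D. Every tested member was counted in every library, but the part of depth in the differences was not tested. The 1 day comparison has 2 control KD libraries, and levels per kb rest on annotated lengths. With all libraries no proliferation marker passed an edgeR adjusted p of 0.05 between YBX3 KD and control KD, and without replicate D all 4 were lower. Proliferation markers were also lower in replicate D, with ranges that overlapped, and its libraries are among the shallower ones. The part of proliferation was not tested.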
